A study of Mus musculus with 5 samples.

Results

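The Ms4a genes examined here are Ms4a6b, Ms4a6c, Ms4a6d, Ms4a4a, Ms4a4b and Ms4a4c, 6 members of the membrane-spanning 4-domain family, taken by symbol from a table of 56748 mouse genes. All 6 were present in the table and all 6 passed the filter on low counts. RNA had been sequenced from CD11b-positive cells of the brain without the cerebellum, 1 library per mouse, at an age of 7 months. Of the 5 mice, 2 were 5xFAD (numbers 1 and 3), carrying the transgenes of a familial Alzheimer's disease model with early amyloid plaques. The other 3 (numbers 1, 2 and 3) were 5xFAD/Cd5l tg/wt, which adds a transgene driving mouse CD5L from the PDGF-B promoter of human, and are called Cd5l-transgenic here. All 5 mice therefore carried the 5xFAD transgenes, and wild-type mice were not analysed here. The comparison asked whether the level of these genes differed between plaque-bearing mice with and without forced expression of CD5L, a secreted scavenger-receptor-family protein of macrophages.

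Ms4a proteins cross the membrane 4 times, like CD20 (Ms4a1) of B cells and the beta chain of the high-affinity IgE receptor (Ms4a2) of mast cells, which founded the family. They sit in clusters beside immune receptors and adjust their signalling. In the human brain the members MS4A4A and MS4A6A are expressed by microglia and other macrophages, and common variants of their locus go with Alzheimer's disease risk and with the level of soluble TREM2 in cerebrospinal fluid. Mice have several copies of each of these genes, so that Ms4a6b, Ms4a6c and Ms4a6d together stand for MS4A6A, and Ms4a4b, Ms4a4c and Ms4a4d are close relatives of Ms4a4a.

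The copies are alike in sequence, which bears both on their regulation and on how reads are told apart. In the RefSeq promoter table (GRCm38.p6), which holds 5 of the 6 members and not Ms4a6d, the windows upstream of Ms4a6b and Ms4a6c share a stretch that is 83.1% identical over 183 aligned positions. Those of Ms4a4b and Ms4a4c share one that is 89.1% identical over 128. The stretches are shown because they let the copies be compared letter by letter and because the first pair holds a motif. Capitals mark matches to GAAANNGAA, the core of the interferon-stimulated response element.

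Ms4a6b, chr19:11518311-11518489, plus strand, 248 to 70 bases before the start: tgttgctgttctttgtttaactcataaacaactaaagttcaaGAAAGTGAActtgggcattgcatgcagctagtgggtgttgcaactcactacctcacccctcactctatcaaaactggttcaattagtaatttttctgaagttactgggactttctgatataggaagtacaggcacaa
Ms4a6c, chr19:11469193-11469367, plus strand, 175 to 1 bases before the start: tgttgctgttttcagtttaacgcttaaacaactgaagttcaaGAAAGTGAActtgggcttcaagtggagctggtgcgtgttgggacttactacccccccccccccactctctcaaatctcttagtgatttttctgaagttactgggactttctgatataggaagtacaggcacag
Ms4a4b, chr19:11443427-11443553, plus strand, 131 to 5 bases before the start: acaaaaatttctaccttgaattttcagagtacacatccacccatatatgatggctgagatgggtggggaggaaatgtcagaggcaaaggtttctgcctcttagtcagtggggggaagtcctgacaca
Ms4a4c, chr19:11407533-11407660, plus strand, 128 to 1 bases before the start: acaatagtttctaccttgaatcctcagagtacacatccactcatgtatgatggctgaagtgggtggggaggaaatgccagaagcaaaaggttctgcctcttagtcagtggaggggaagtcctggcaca

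Searched on both strands over the full windows of 300 bases, the core GAAANNGAA occurred in 2 of the 5 member promoters. It lay at 206 to 198 bases before the start of Ms4a6b and at 133 to 125 bases before that of Ms4a6c, with the same letters GAAAGTGAA in both. Of all 32851 promoters in the table, 8.56% held the core. The PU.1 site GAGGAAGT was found in 0 of the 5, against 3.20% of all promoters. Only the first motif had matches here, so the motifs did not overlap, and a match describes the sequence only.

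The coding sequences followed the same pairs. In GENCODE M21 (GRCm38) the coding sequences of Ms4a4b and Ms4a4c were 91.7% identical, those of Ms4a6b and Ms4a6c 85.4%, of Ms4a6b and Ms4a6d 81.2%, and of Ms4a6c and Ms4a6d 79.0%. Ms4a4a stood further from the rest, at 67.1% to Ms4a4b and 68.3% to Ms4a4c. These coding percentages leave gaps in the alignment out, whereas those of the promoter stretches count gap positions, so the 2 kinds are not on the same scale. Of all stretches of 50 bases in the longest transcript, 11.33% for Ms4a6c, 8.48% for Ms4a4c, 4.19% for Ms4a4b, 3.28% for Ms4a6b and 2.92% for Ms4a6d also occurred in a transcript of another gene, and 0% for Ms4a4a. With stretches of 100 bases the highest share was 1.72%, for Ms4a4c with Ms4a4b, and with 150 bases it was 0% for all 6. How reads falling in such stretches were counted is not known here, so the split of counts between these paralogs is uncertain to that extent.

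The family occupies 1 stretch of chromosome 19, and RNA was found over 1 part of it. In the authors' table (GRCm39) 21 Ms4a genes lie between position 10939657 (Ms4a10) and 11618215 (the end of Ms4a3), over 678.6 kb. The 8 genes with at least 100 counts over all libraries followed each other from Ms4a14 to Ms4a6d, over 303.6 kb, with 1 gene of only 3 counts, Ms4a4d, among them. The 10 genes before them (Ms4a10 to Ms4a5) had 36 counts together, and 8 of these 10 had 0 counts in every library, where 3 counts would be 0.0847 to 0.102 CPM (counts-per-million, scaled by TMM factors for library composition). The 2 genes after them, Ms4a2 and Ms4a3, had 12 counts together.

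**Figure D1:**
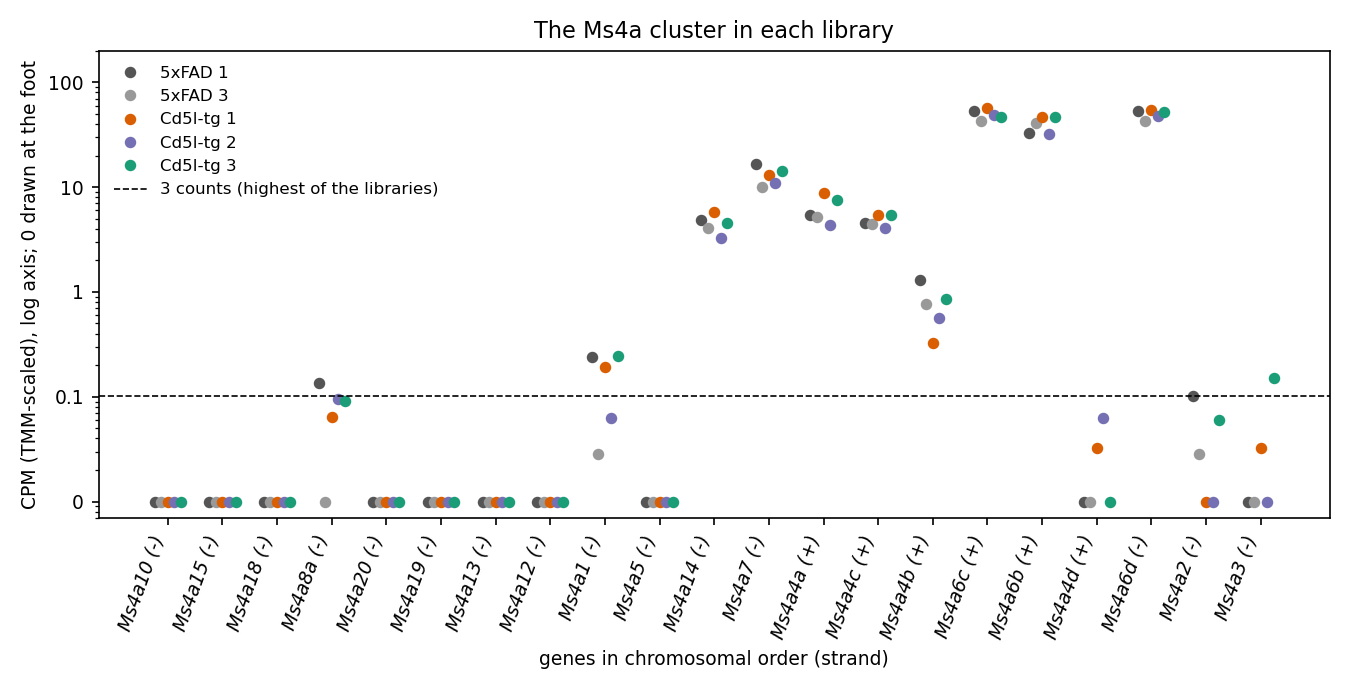
Level of each Ms4a gene (CPM, log axis, values of 0 drawn at the foot) in chromosomal order with its strand, 1 point per library, with a dashed line at 3 counts. The 8 genes from Ms4a14 to Ms4a6d, apart from Ms4a4d, lie above the line in all 5 libraries, and 8 of the genes to their left are at 0 in every library.

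Before the members, the labels and the cell type were checked. Cd5l stood at 1.53 and 0.254 CPM in 5xFAD mice 1 and 3 and at 233.7, 334.9 and 194.8 CPM in Cd5l-transgenic mice 1, 2 and 3. Itgam, the gene of CD11b, stood between 305.5 and 363.4 CPM, and 15 homeostatic microglia genes summed to between 29530 and 32000 CPM. Libraries held 30798377 to 34794617 counts, and pairs of libraries differed by 20.8 to 59.4 in chi-square per degree of freedom, so no library was a copy of another. Cd5l-transgenic mouse 2 stood apart in oligodendrocyte markers (4583 CPM summed, against 365.1 to 1150 in the other 4), 5xFAD mouse 3 in choroid plexus and ependyma markers (4273 CPM, against 434.2 to 1004), and 5xFAD mouse 1 in late plaque-associated microglia genes (20580 CPM, against 11600 to 12770). Cd5l-transgenic mouse 2 was also highest in endothelial (1181 CPM, against 578.9 to 667.8) and mural markers (517.5 CPM, against 284.6 to 380.4). The same held for erythroid (22.05 CPM, against 1.608 to 8.684) and astrocyte markers (434 CPM, against 301.8 to 356.9).

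No member passed the test for a difference between the genotypes, given throughout as the log2 fold change of Cd5l-transgenic over 5xFAD mice, so that values above 0 are higher with the transgene. In the edgeR quasi-likelihood test 0 of the 6 members were called at an adjusted p under 0.05, and 0% of all 17724 tested genes were, so the count does not set the members apart. Even Cd5l did not pass there (log2 fold change 8.23, adjusted p = 0.448), while the DESeq2 Wald test called it (adjusted p = 8.2e-19). At an unadjusted p under 0.05 there were 0 of the 6 members and 467 of all genes, and the DESeq2 Wald test called 0 members and 0.0724% of the genes to which it gave an adjusted p. In none of the 6 did all Cd5l-transgenic libraries lie above both 5xFAD libraries, which held for 7.20% of tested genes, or below both, which held for 8.69%. Of the 6 log2 fold changes 5 lay above 0, with a median of 0.12, against -0.03 over all tested genes. With 1 library left out the members' median ran from 0.03 (without 5xFAD mouse 3) and 0.06 (without Cd5l-transgenic mouse 1) to 0.21 (without 5xFAD mouse 1) and 0.22 (without Cd5l-transgenic mouse 2).

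Ms4a6d, a macrophage member that pairs with the complement receptor VSIG4 to restrain inflammasome activity, had the highest mean level per length of the members (ENSMUSG00000024679, chromosome 19, 11563968 to 11582213, minus strand). It stood at 53.5 and 43.2 CPM in 5xFAD mice 1 and 3 and at 54.3, 47.5 and 51.7 CPM in Cd5l-transgenic mice 1, 2 and 3. Cd5l-transgenic mice 2 and 3 lay between the 5xFAD mice and mouse 1 just above both. The means were 48.4 ± 7.31 (SD, n = 2) and 51.2 ± 3.42 CPM (SD, n = 3), and the log2 fold change was 0.08 (SE 0.12, 95% interval -0.21 to 0.37, edgeR adjusted p = 0.995). This interval was the narrowest of the 6 members.

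Ms4a6c, a member found in monocytes and macrophages (ENSMUSG00000079419, 11446730 to 11459556, plus strand), had similar CPM. Its values were 53.0 and 42.5 CPM in 5xFAD mice 1 and 3, and 56.7, 48.8 and 46.6 CPM in Cd5l-transgenic mice 1, 2 and 3. The groups overlapped, with 5xFAD mouse 3 lowest and Cd5l-transgenic mouse 1 highest, as for Ms4a6d. The log2 fold change was 0.09 (SE 0.13, 95% interval -0.24 to 0.41, adjusted p = 0.995). Both genes changed sign with 1 mouse left out: without 5xFAD mouse 3 the values were -0.07 for Ms4a6c and -0.07 for Ms4a6d.

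Ms4a6b, the third of these copies (ENSMUSG00000024677, 11493876 to 11508620, plus strand), had another order of the mice. It stood at 33.1 and 40.7 CPM in 5xFAD mice 1 and 3 and at 46.3, 32.2 and 46.5 CPM in Cd5l-transgenic mice 1, 2 and 3. Cd5l-transgenic mouse 2 and 5xFAD mouse 1 were low and the other 3 mice high, so that each genotype had a low mouse. The means were 36.9 ± 5.41 (SD, n = 2) and 41.7 ± 8.17 CPM (SD, n = 3), with a log2 fold change of 0.17 (SE 0.19, 95% interval -0.31 to 0.65, adjusted p = 0.995). Without 5xFAD mouse 1 it was 0.03, and without Cd5l-transgenic mouse 2 it was 0.34.

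Ms4a4a, the mouse counterpart of the human risk gene and in macrophages a partner of the beta-glucan receptor dectin-1, had the largest positive fold change of the members (ENSMUSG00000101389, 11352887 to 11370154, plus strand). It stood at 5.39 and 5.19 CPM in 5xFAD mice 1 and 3, and at 8.79, 4.36 and 7.56 CPM in Cd5l-transgenic mice 1, 2 and 3. The 2 5xFAD mice were close to each other, and the transgenic mice lay on both sides of them, 2 above and mouse 2 below. The means were 5.29 ± 0.138 (SD, n = 2) and 6.91 ± 2.29 CPM (SD, n = 3), and the log2 fold change was 0.38 (SE 0.32, 95% interval -0.39 to 1.16, adjusted p = 0.995). Without Cd5l-transgenic mouse 2 it was 0.64, and without Cd5l-transgenic mouse 1 it was 0.18. It had 139 to 272 counts per library, where each Ms4a6 gene had at least 976, and its interval holds both 0 and a log2 fold change of 1.

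Ms4a4c, close in sequence to Ms4a4b (ENSMUSG00000024675, 11382134 to 11404610, plus strand), stood at 4.51 and 4.40 CPM in 5xFAD mice 1 and 3. In Cd5l-transgenic mice 1, 2 and 3 it stood at 5.37, 4.05 and 5.42 CPM. The arrangement was that of Ms4a4a, with mouse 2 below both 5xFAD mice and the other 2 above. The log2 fold change was 0.15 (SE 0.22, 95% interval -0.38 to 0.68, adjusted p = 0.995). It was 0.29 without Cd5l-transgenic mouse 2, 0.09 without mouse 1 and 0.10 without mouse 3.

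Ms4a4b, which is best known from T cells, where its protein associates with the co-stimulatory receptor GITR, was the least abundant (ENSMUSG00000056290, 11420917 to 11444419, plus strand). It had 38 and 27 counts in 5xFAD mice 1 and 3 and 10, 18 and 28 counts in Cd5l-transgenic mice 1, 2 and 3, or 1.29 and 0.762 CPM against 0.323, 0.565 and 0.847 CPM. The highest value was in a 5xFAD mouse and the lowest in a transgenic one, and Cd5l-transgenic mouse 3 lay between the 5xFAD mice. The log2 fold change was -0.78 (SE 0.49, 95% interval -1.99 to 0.43), with the smallest unadjusted p of the members, 0.165 (adjusted p = 0.995). It was -0.38 without 5xFAD mouse 1 and -0.51 without Cd5l-transgenic mouse 1, and -1.14 without 5xFAD mouse 3 and -1.15 without Cd5l-transgenic mouse 3. Counting error alone is 20.3% of its mean count, against 2.50% to 8.10% for the other 5 members.

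**Figure D2:**
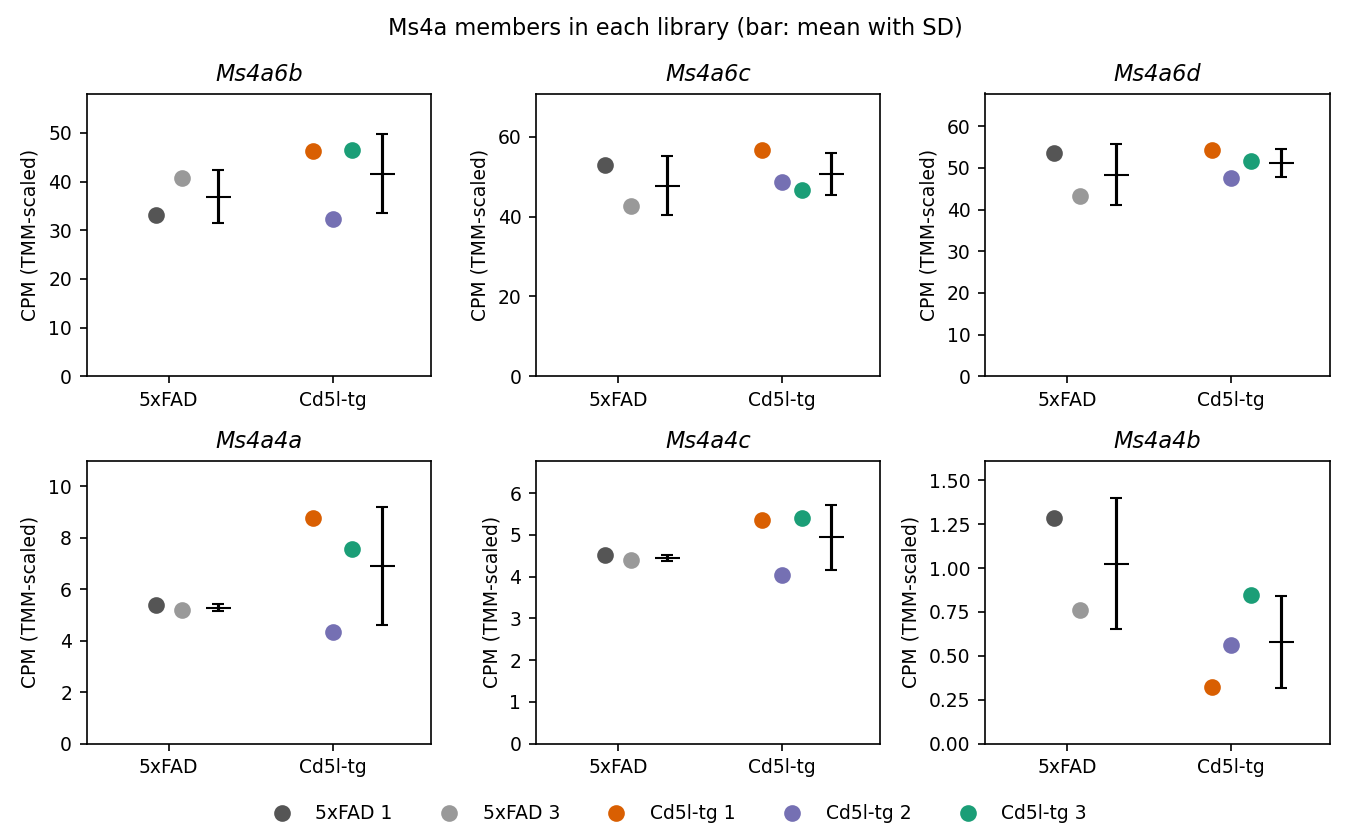
CPM of each member (TMM-scaled) in the 2 5xFAD and 3 Cd5l-transgenic libraries, 1 point per mouse, with the mean and SD of each genotype beside the points. In every panel the genotypes overlap, and Cd5l-transgenic mouse 2 is the lowest library for Ms4a6b, Ms4a4a and Ms4a4c.

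**Figure D3:**
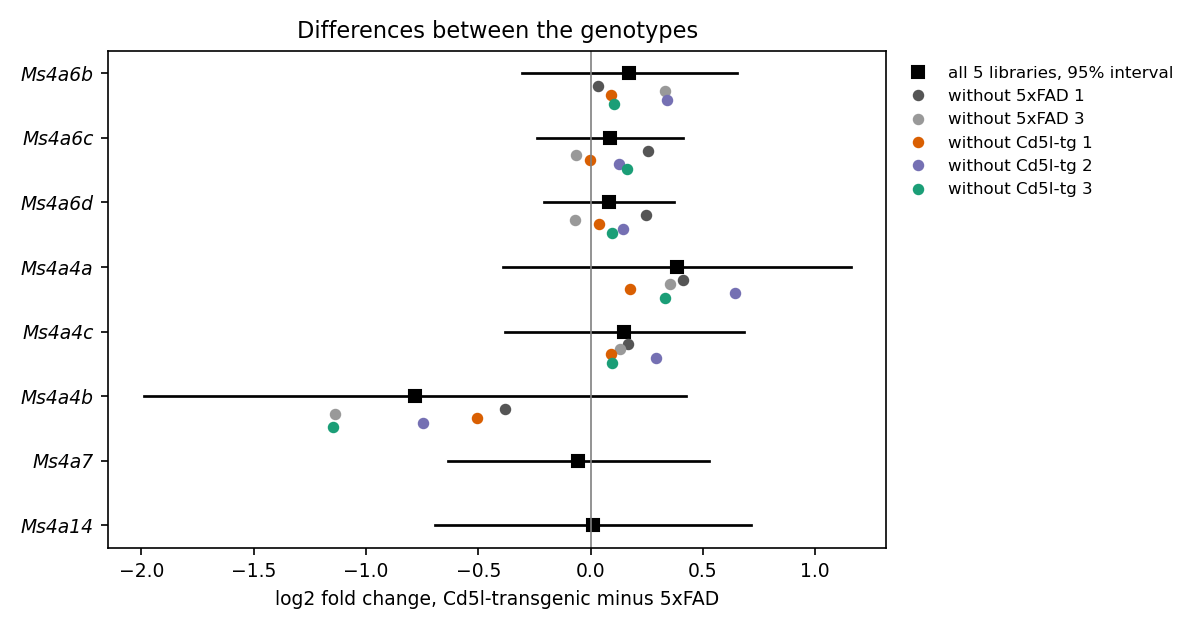
Log2 fold change (Cd5l-transgenic minus 5xFAD) of the 6 members and of Ms4a7 and Ms4a14, with the 95% interval of the edgeR fit, and for the members the values with each library left out as coloured points. Every interval holds 0, that of Ms4a4b is the widest, and points of Ms4a6c and Ms4a6d fall on both sides of 0.

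Levels can be set side by side between genes only per length, here as mean CPM per kilobase of the authors' gene length over the 5 libraries. On that scale Ms4a6d stood at 28.9 and Ms4a6c at 24.2, and their ranges over the libraries overlapped (24.9 to 31.3 and 20.7 to 27.6). Ms4a6b at 8.86 and Ms4a4a at 7.49 came next, again with overlapping ranges (7.18 to 10.4 and 5.22 to 10.5). Ms4a4c stood at 2.71 (2.31 to 3.09), below every value of Ms4a4a, and Ms4a4b at 0.0862 (0.0368 to 0.147), below every value of Ms4a4c. Ms4a4b and Ms4a4c, the pair with the most similar coding sequence, were thus far apart in level. The authors' length of Ms4a4b, 8780 bases, exceeds its longest transcript in GENCODE M21, 4750 bases, so its level per kilobase depends on the length used.

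The Ms4a6 genes carried most of the family's counts. Ms4a6b, Ms4a6c and Ms4a6d together stood at 139.6 and 126.4 CPM in 5xFAD mice 1 and 3 and at 157.2, 128.5 and 144.8 CPM in Cd5l-transgenic mice 1, 2 and 3, between 91.3% and 93.5% of the CPM of all 6 members. Such a sum does not change when reads are moved between the 3 copies, and its ratio of means was 1.08. It would still change if reads that match more than 1 gene were dropped or given to genes outside the 3, which is not known here. Ms4a4a, Ms4a4b, Ms4a4c and Ms4a4d together stood at 11.2 and 10.4 CPM against 14.5, 9.03 and 13.8 CPM, a ratio of means of 1.16, with the transgenic mice again on both sides of the 5xFAD mice. In these bulk libraries a smaller number of cells of a type and less RNA per cell cannot be told apart.

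The balance between the Ms4a6 copies varied between mice of 1 genotype. Ms4a6b took 28.0% ± 6.02 (SD, n = 2) of the CPM of the 3 genes in 5xFAD mice and 28.9% ± 3.55 (SD, n = 3) in Cd5l-transgenic mice, a difference smaller than either spread. Ms4a6b made up 38.4% (exact 95% interval 36.5 to 40.4) of the counts of Ms4a6b and Ms4a6c in 5xFAD mouse 1 and 48.9% (47.1 to 50.7) in 5xFAD mouse 3. In Cd5l-transgenic mice 1, 2 and 3 the share was 44.9% (43.2 to 46.7), 39.8% (37.9 to 41.7) and 49.9% (48.1 to 51.7). The lowest and the second-lowest share, and likewise the highest and the second-highest, came from different genotypes. Ms4a6d, set against Ms4a6c in the same way, stayed between 48.9% and 52.6% in the 5 libraries. These intervals cover counting error only.

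**Figure D4:**
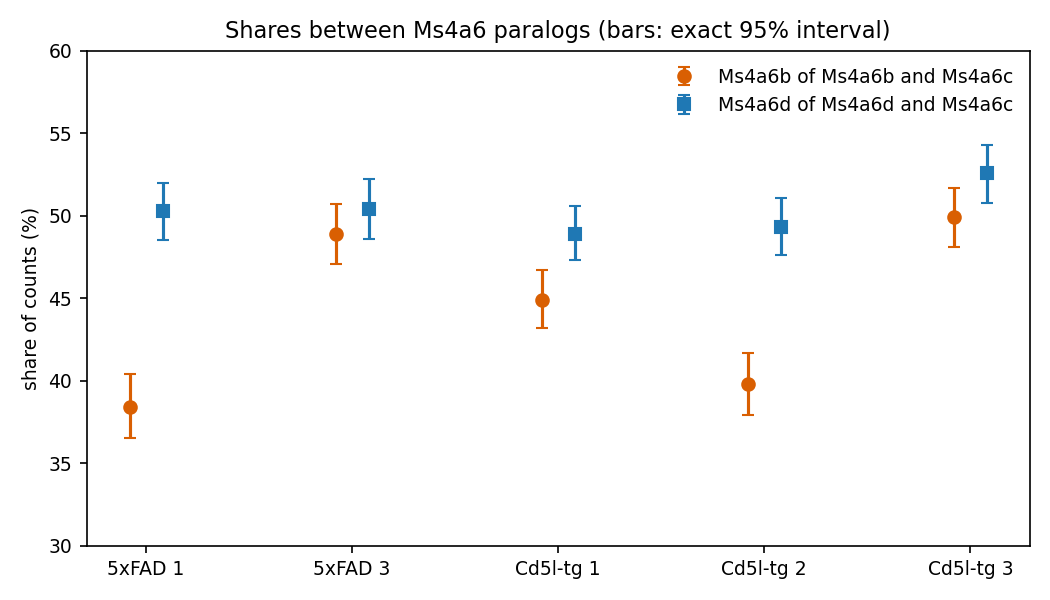
Share of Ms4a6b in the counts of Ms4a6b and Ms4a6c (circles) and of Ms4a6d in those of Ms4a6d and Ms4a6c (squares), in percent, by library, with exact 95% binomial intervals. The circles run from 38.4% to 49.9% and the squares from 48.9% to 52.6%.

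Likeness between genes was measured as the root mean square difference of their log2 CPM over the 5 libraries, each centred on its own mean, among the 10510 genes averaging 5 CPM or more. Ms4a6c and Ms4a6d differed by 0.0726 (Ms4a6d ranked 189th in likeness to Ms4a6c, and Ms4a6c 241st to Ms4a6d), whereas Ms4a6b differed from them by 0.27 and 0.24. Ms4a6b was nearer to Ms4a4a (0.20), ranking 20th of the 10510 in likeness to it, while Ms4a4a ranked 2015th in likeness to Ms4a6b. The genes nearest to Ms4a4a were Nlrc5, the activator of MHC class I genes (0.0673), Cd163, the haemoglobin scavenger receptor (0.13), and Irgm1, an interferon-inducible GTPase (0.15). Nlrc5 stood at 74.7 and 74.9 CPM in 5xFAD mice 1 and 3 and at 109.5, 59.8 and 101.5 CPM in Cd5l-transgenic mice 1, 2 and 3, so that mouse 2 was the low one there too. The nearest to Ms4a6b were Zfp934, Platr25 and Sarnp (0.0607 to 0.0656), to Ms4a6c Ninj1, Slc7a11 and Depdc5 (0.0156 to 0.0240), and to Ms4a6d Noc4l, Arhgdib and Znhit6 (0.0210 to 0.0291). These likenesses rest on 5 libraries and are given with no test.

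The sum of 1 marker list, that of border-associated macrophages, had the highest and lowest mice of Ms4a4a. The 12 genes of these cells, which line vessels and meninges, summed to 942.8 and 1002 CPM in 5xFAD mice 1 and 3 and to 1208, 902.4 and 1173 CPM in Cd5l-transgenic mice 1, 2 and 3. That is the order of Ms4a4a at its top and bottom, with Cd5l-transgenic mouse 1 highest, mouse 3 next and mouse 2 lowest. Stab1 alone gave 548.5 to 760.8 CPM of the sum, and its lowest value was in 5xFAD mouse 1. Of the markers only Cd163 was highest in Cd5l-transgenic mouse 1 (63 CPM, against 62.75 in mouse 3) and lowest in mouse 2 (35.09 CPM). Mrc1, Pf4, Lyve1, F13a1, Clec4n, Cbr2 and Siglec1 were highest in Cd5l-transgenic mouse 3. Folr2 was lowest in 5xFAD mouse 3, and Cd209f was highest there. Colec12 was highest in 5xFAD mouse 1 (103.4 CPM) and lowest in Cd5l-transgenic mouse 3 (26.5 CPM). Cbr2 and Siglec1 in Cd5l-transgenic mouse 1 lay below both 5xFAD mice. None of these 12 markers was at 0, 9 lay above 0 and 3 below in log2 fold change, with a median of 0.21 and 0 called. Lyve1, a receptor for hyaluronan, had a log2 fold change of 0.49 and Stab1, a scavenger receptor, one of 0.21. Ms4a7, a family member that marks these macrophages, did not share the order: it had its highest value, 16.5 CPM, and its lowest, 10.1 CPM, in the 5xFAD mice, and the transgenic mice 1, 2 and 3 lay between at 13.1, 10.9 and 14.1 CPM. The part of these cells in the values of Ms4a4a was not tested.

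The sum of the late plaque-associated genes was highest in 5xFAD mouse 1, where Ms4a4a was 5.39 CPM, against 5.19 CPM in the other 5xFAD mouse. Cox6a2 and Ccl6 of this list were instead highest in Cd5l-transgenic mouse 1 (52.4 and 550.4 CPM, against 42.5 and 442.1 CPM in 5xFAD mouse 1). Of these 19 genes 17 lay below 0, with a median of -0.29 and 0 called. The log2 fold changes of Itgax and Spp1, an integrin subunit and osteopontin, were -0.63 and -1.50. The 12 monocyte genes past the filter, of 13, lay above 0 in 10 cases with a median of 0.51 and 0 called, among them Plac8 at 0.98. Their sum was 812.2 and 785.5 CPM in 5xFAD mice 1 and 3, against 564, 699.8 and 804.7 CPM in Cd5l-transgenic mice 1, 2 and 3, and S100a4 was at 0 in every library. Neither Ms4a6c nor Ms4a6d, which were highest in Cd5l-transgenic mouse 1, had the order of that sum, which was lowest there. The 15 homeostatic genes had a median of 0.05 with 12 above 0 and 0 called, Siglech at 0.22 and the growth factor receptor gene Csf1r at 0.13. Per 1000 CPM of their sum, Ms4a4a stood at 0.174 and 0.176 in 5xFAD and 0.275, 0.147 and 0.243 in Cd5l-transgenic mice 1, 2 and 3, the same arrangement as without this scaling.

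**Figure D5:**
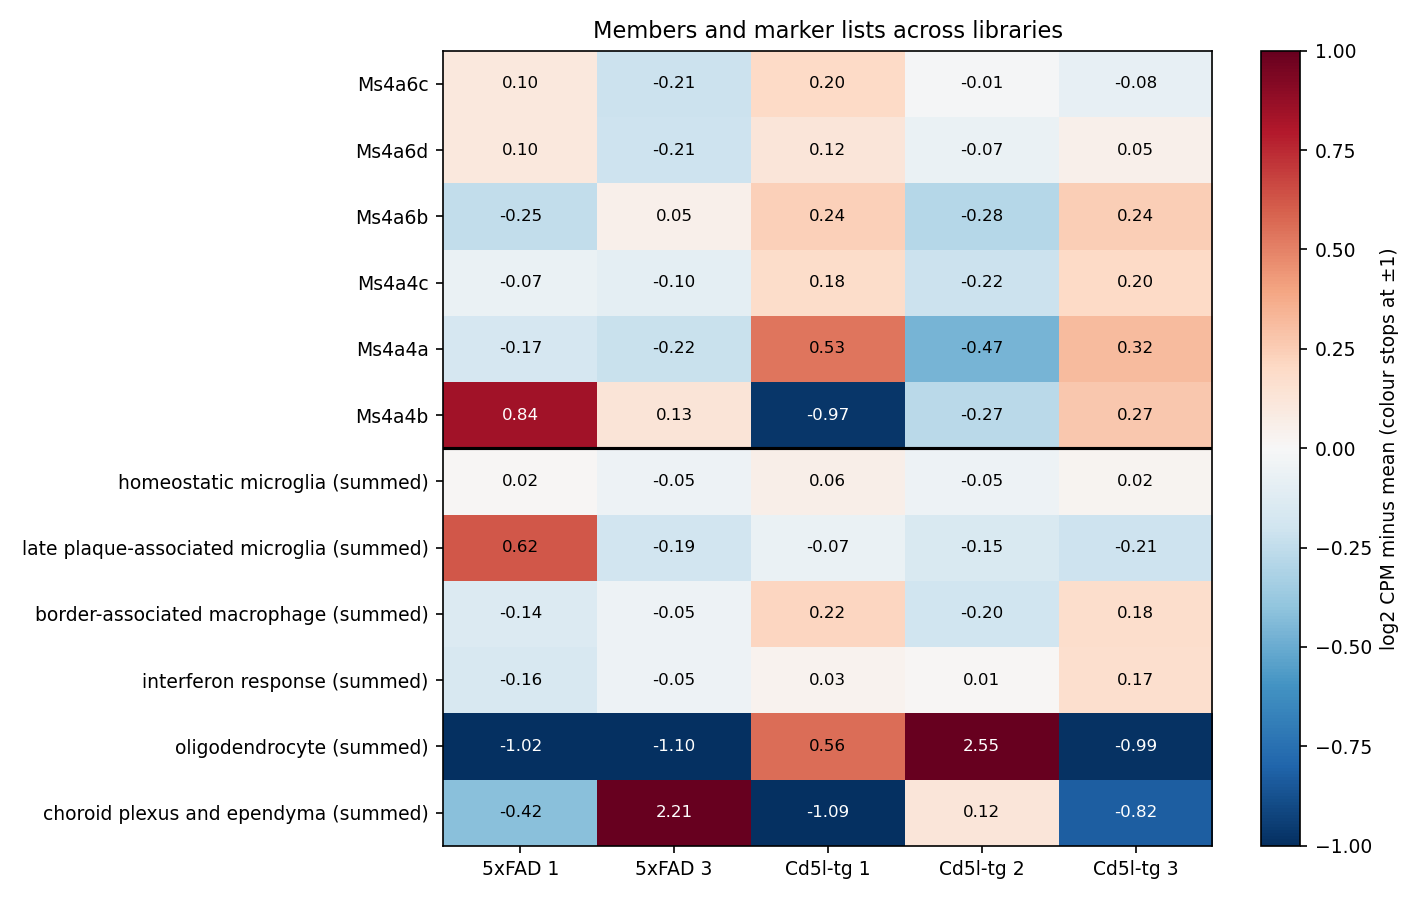
Log2 CPM of each member (upper rows) and log2 of the summed CPM of 6 marker lists (lower rows) in each library, minus the mean of the 5 libraries, with the value written in each cell. Ms4a6b, Ms4a6d, Ms4a4c and Ms4a4a are positive in Cd5l-transgenic mice 1 and 3 and negative in mouse 2, and so are the summed border-associated macrophage and homeostatic microglia lists, the latter by at most 0.06, whereas the oligodendrocyte list peaks in Cd5l-transgenic mouse 2 and the choroid plexus list in 5xFAD mouse 3.

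Beside Ms4a4b, T and NK cell markers were examined. The T cell receptor complex genes Cd3d, Cd3e and Cd3g stood at 0.271, 0.847 and 0.407 CPM in 5xFAD mouse 1, where Ms4a4b was highest, and between 0.0314 and 0.259 CPM in the other 4 libraries. Other T cell genes had other orders: Trac, a chain of the same receptor, was lowest in 5xFAD mouse 1 (0.271 CPM) and highest in Cd5l-transgenic mouse 3 (0.847 CPM, log2 fold change 0.52), where Cd8a, Themis and Il7r were highest too, and Cd4 was highest in 5xFAD mouse 3. The T cell list of 14 genes, none at 0 in all libraries, summed to 34.4 and 34.0 CPM in 5xFAD mice 1 and 3. In the transgenic mice the sum was 25.9 to 33.4 CPM, and most of it came from Cd5 and Il7r in both genotypes. Of its 9 genes past the filter 3 lay above 0 and 6 below, with a median of -0.33 and 0 called. Lck, the kinase of the T cell receptor, stood at 1.32 and 0.931 CPM in 5xFAD mice 1 and 3, above the 0.517, 0.910 and 0.847 CPM of Cd5l-transgenic mice 1, 2 and 3 (log2 fold change -0.55). The 10 NK cell genes summed to 8.10 and 5.98 CPM in 5xFAD mice 1 and 3, against 5.36 to 8.02 CPM in the transgenic mice. Of the 8 past the filter 4 lay above 0 and 4 below, and 0 were called. Klrb1c, like Ms4a4b, was highest in 5xFAD mouse 1 (2.575 CPM) and lowest in Cd5l-transgenic mouse 1 (1.422 CPM, log2 fold change -0.33). Ncr1 was instead highest in Cd5l-transgenic mouse 1 (0.808 CPM) and lowest in 5xFAD mouse 3 (0.339 CPM, log2 fold change 0.60). The part of these cells in the counts of Ms4a4b was not tested.

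Among the other relatives, 4 passed the filter and none was called. Ms4a7 had means of 13.3 ± 4.54 (SD, n = 2) and 12.7 ± 1.63 CPM (SD, n = 3), with a log2 fold change of -0.05 (95% interval -0.64 to 0.53). Ms4a14 stood at 4.49 and 4.51 CPM on average, with a log2 fold change of 0.01. Tmem176a and Tmem176b, related 4-pass proteins of dendritic cells and macrophages on chromosome 6, were the most abundant, at 158 and 288.6 CPM on average without the transgene, 155.5 and 285.6 CPM with it, and a log2 fold change of -0.02 for each. Ms4a1, the CD20 gene, was near the limit of detection, as were the relatives of mast cells and progenitors. It had 24 counts over all libraries, Ms4a8a 12, Ms4a2 and Ms4a3 6 each and Ms4a4d 3. Of 9 mast cell and basophil markers 3 passed the filter, with a median of 0.11 and 0 called. Gata2 had a log2 fold change of 0.79 and Hdc one of -0.77. Ms4a6e was not found under that symbol and is not analysed here.

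Genes whose products work with Ms4a proteins gave no call either. Of 8 listed partners 5 passed the filter, 3 above and 2 below 0, with a median of 0.02 and 0 called. Clec7a, which encodes dectin-1, stood at 756 and 590.8 CPM in 5xFAD mice 1 and 3 and at 527.2, 499.9 and 639 CPM in Cd5l-transgenic mice 1, 2 and 3 (log2 fold change -0.28), and Trem2 at 2406 and 1598 CPM against 1719, 1796 and 1672 CPM (-0.21). In both the highest value was that of 5xFAD mouse 1, and the remaining 5xFAD mouse lay among or below the transgenic ones. Vsig4, the partner of Ms4a6d, and Tnfrsf18, which encodes GITR, did not pass the filter. Vsig4 had 0 and 5 counts against 6, 5 and 8, and Tnfrsf18 had 1 and 3 counts against 12, 6 and 9, so that in CPM the transgenic mice lay above both 5xFAD mice in each, at a few counts per library. Of 13 genes of TREM2 signalling and shedding 6 lay above 0 and 7 below, with a median of -0.001 and 0 called, among them the sheddase gene Adam10 at 0.09.

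Genes of macrophage activation states were counted in the same way. Of 30 interferon-response genes 27 lay above 0 and 3 below, with a median of 0.19 and 0 called by edgeR after adjustment. At an unadjusted edgeR p under 0.05 there were 5 of the 30, against 467 of all 17724 tested genes. In 13 every library with the transgene was higher than either 5xFAD library, against 7.20% of tested genes. In 0 every one was lower, against 8.69%. The list as a whole was not tested. The 30 genes summed to 1865 and 2012 CPM in 5xFAD mice 1 and 3. In Cd5l-transgenic mice 1, 2 and 3 the sum was 2134, 2109 and 2349 CPM. Cd5l-transgenic mouse 2 lay close to mouse 1 in this sum, whereas Ms4a6b stood there at 32.2 against 46.3 CPM and Ms4a6c at 48.8 against 56.7 CPM. The antiviral genes Mx1 and Ifitm3 had log2 fold changes of 0.25 and 0.30. Of 10 alternative activation genes past the filter 6 lay above 0 and 4 below, with a median of 0.19 and 0 called, and Chil3 and Clec10a had log2 fold changes of 1.02 and 0.33. Chil3 stood at 11.99, 9.72 and 5.45 CPM in Cd5l-transgenic mice 1, 2 and 3, the order of the neutrophil list, which summed there to 212, 162.6 and 81.1 CPM, against 64.5 and 84.0 CPM in 5xFAD mice 1 and 3. Of its 11 genes past the filter 10 lay above 0, with a median of 1.01 and 0 called, among them Camp at 1.42 and Ngp at 1.07. The part of these cells in the values of Chil3 was not tested.

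Genes around the cluster were compared in the same way. Of 58 protein-coding genes outside the family within 1 Mb of the members 26 passed the filter, 6 above and 20 below 0, with a median of -0.04 and 0 called; of all 17724 tested genes 10145 lay below 0. In 4 of the 26 every library with the transgene was lower than either 5xFAD library, against 8.69% of tested genes, and in 0 every one was higher, against 7.20%. The only one with an unadjusted p under 0.05 was Tmem132a (log2 fold change -0.29). The nearby myeloid genes Mpeg1, which encodes the pore-forming perforin-2, and Slc15a3, a lysosomal peptide transporter, averaged 5681 and 421.5 CPM without the transgene and 5420 and 420.3 CPM with it.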

How the data were processed

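The authors deposited 1 table of raw read counts by Ensembl gene, not normalised, with gene lengths in bases. Per the submitters' processing notes the build is GRCm39. Aligner, counter, strand setting and read length: not given in the sources used here. The column for Cd5l-transgenic mouse 3 swaps 2 letter pairs and was matched by those letters and its number.

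Genes were filtered with filterByExpr by genotype and tested with the quasi-likelihood test of edgeR 4.0.16 (TMM factors, robust) under R 4.3.3, on the genotype alone, with Benjamini-Hochberg adjustment over 17724 genes and a threshold of 0.05. CPM are TMM-scaled. Each standard error is the fold change over the root of F. Scripts were tested on simulated counts. DESeq2 1.42.0 ran on all genes with at least 1 count.

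Each title names 1 mouse, and with 2 mice against 3 the p-values rest on the spread between these mice. The members and lists were chosen with earlier results of these data known. Named were all members, relatives of at least 1 CPM, and the 3 genes most like each member of at least 5 CPM. From each list given with its number of genes called, the 2 genes with the smallest p were named. Others, such as Cd3e, Trac, Colec12, Cox6a2, Mpeg1 and Itgam, were chosen after their values were seen. Alternatives were other scaling factors, DESeq2, limma-voom (limma 3.58.1), the legacy test, other filters, a replicate block and each library left out.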

Additional observations from a re-analysis of the deposited data

How the results depend on the processing

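No member was called under any of the 8 other settings of scaling, tool, filter or block, or with any library left out. The number of genes called, 0 in the edgeR test, was 14 in the DESeq2 Wald test (12 higher and 2 lower) and ranged from 0 to 10 with 1 library left out, the 10 being without 5xFAD mouse 1, when 1 5xFAD mouse is left and is assumed to vary like the others. The median of the members, 0.12, was within 1 SD of the mice (0.22 on the log2 scale) in each of these settings, and ran from 0.03 to 0.22 with 1 library left out. With a library left out Ms4a6c ranged from -0.07 to 0.25 and Ms4a6d from -0.07 to 0.25, below 0 without 5xFAD mouse 3 (-0.0655 and -0.0673) and, for Ms4a6c, without Cd5l-transgenic mouse 1 (-0.0003). The other 4 members kept their direction under every alternative that gave them a value, while limma-voom put Ms4a4b at -1.22 and leaving out 1 library at -1.15 to -0.38. At 5 CPM in 2 samples Ms4a4b was not tested. With the replicate block no gene was called and the members' median was 0.21. Ms4a6b and Ms4a4a then had unadjusted edgeR p-values of 0.0327 and 0.0373 (adjusted p = 0.9999 for each). Without Cd5l-transgenic mouse 2 and with no block these were 0.0340 and 0.0190 (adjusted p = 0.9998 for each). The numbers of the mice are not known to pair them. Deviations of same-numbered mice correlated at 0.13 for number 1 and -0.24 for number 3. With 2 mice in 1 genotype, the intervals of Ms4a4a and Ms4a4b include changes of more than 2-fold.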
